A study of Homo sapiens with 12 samples.

Results

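The 10 genes described here encode core parts of the mTOR pathway and the insulin receptor substrates that it feeds back on: MTOR, RPTOR, RICTOR, DEPTOR, TSC1, TSC2, EIF4EBP1, RPS6KB1, IRS1 and IRS2. They were taken by symbol from the array's platform annotation, where 21 probe sets named exactly 1 of them. Each gene was read from its brightest probe set, by mean over the 12 arrays. All 10 were among the 10050 genes with enough signal to be tested, which means at least 3 arrays at 5 log2 units or more.

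mTOR is a protein kinase that works in a pair of complexes. With raptor (RPTOR) it forms mTORC1, which senses amino acids, energy and growth factors and drives protein synthesis by phosphorylating 4E-BP1 and the S6 kinase, and with rictor (RICTOR) it forms mTORC2, which phosphorylates AKT. In insulin signalling the receptor acts through IRS1 and IRS2 on PI3K and AKT, AKT relieves the block that the TSC1-TSC2 complex places on mTORC1, and active S6 kinase in turn damps IRS1. The proximal tubule of the kidney, from which the HK-2 line was derived, is an insulin-responsive epithelium with a high energy demand.

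HK-2 cells, an immortalised human line, were given a compound named Ra for 12 h or 48 h, and control cells received the vehicle for the same times. Each of the 4 groups (Ra at 12 h, control at 12 h, Ra at 48 h and control at 48 h) held 3 samples that the labels call biological replicates, so that 12 arrays of total RNA were available. The series looked for expression signatures of kidney toxicity. The identity of Ra and its dose were not stated in the labels or files. All groups were grown in medium with 5 mM glucose, 5 µg/ml insulin and 10 ng/ml EGF, so every comparison was made with insulin present, and no insulin-free group was analysed here. The model is a single cell line, and the values are mRNA levels, which carry no measure of phosphorylation or kinase activity. In bulk RNA, fewer cells of a type and less RNA per cell cannot be told apart.

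The values are GCRMA expression values on a log2 scale, and the number of arrays limits their precision. The median gene had an SD between replicates of 0.43 in Ra-treated cells and 0.22 in control cells at 48 h, and of 0.12 in each group at 12 h. Ra 48 h replicate 2 stood apart from the other arrays: its 75th percentile over probe sets was 6.30, and all other arrays lay between 7.01 and 7.21. It was the lowest Ra 48 h array for 9 of the 10 members and for 88.9% of all genes. The Ra minus control differences at 48 h on each member's brightest probe set are therefore given with and without that array. The general epithelial markers were all tested (5 of 5: KRT8, KRT18, KRT19, EPCAM and CDH1). Of 17 proximal tubule markers only PAX8, CDH6 and CDH2 passed the filter, and the tubular receptors and transporters LRP2, CUBN, SLC34A1 and AQP1 were not among the genes tested. None of 6 endothelial and 6 immune markers passed it, while 3 of 7 fibroblast markers did. GAPDH differed by 0.05 ± 0.04 (SE) at 12 h and -0.04 ± 0.12 at 48 h, and ACTB by -0.07 ± 0.04 and 0.07 ± 0.12.

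**Figure D1:**
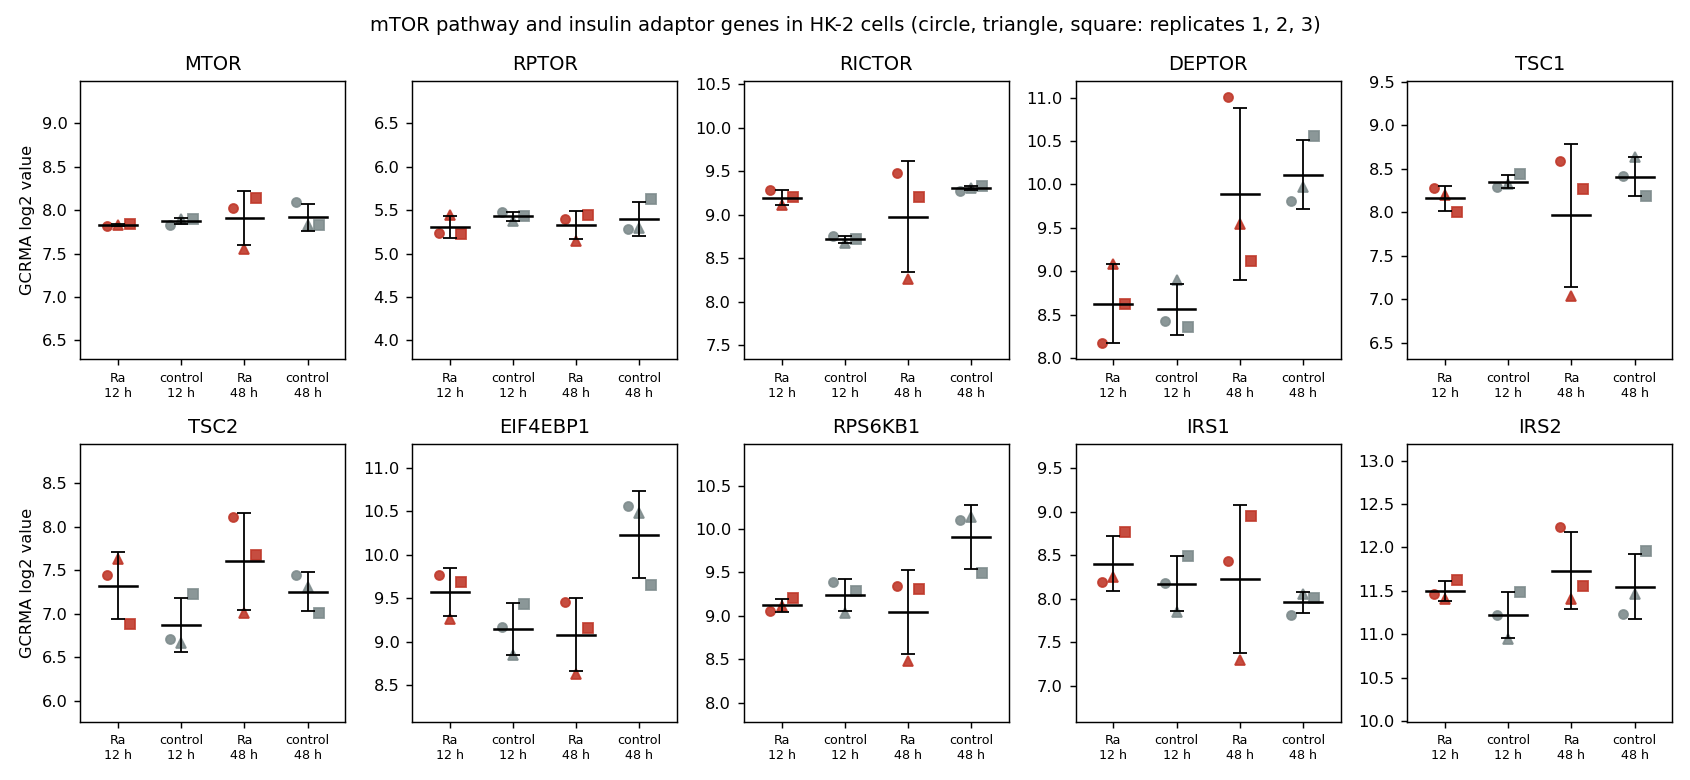
GCRMA log2 values of the 10 genes on each array, with 1 panel per gene, Ra in red and control in grey at 12 h and 48 h; long bars are group means and whiskers 1 SD (n = 3). Each panel has its own axis, so levels are read within a panel. RICTOR is higher in Ra than in control cells at 12 h, and the Ra 48 h triangle, replicate 2, is the lowest Ra 48 h point in every panel but that of DEPTOR.

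At 12 h, 1 of the 10 genes passed the test and it was higher in Ra-treated cells: RICTOR, at 1.39-fold (log2 difference 0.48 ± 0.09, SE, 95% interval 0.28 to 0.68, limma adjusted p = 0.016, n = 3 each). Over all genes 13.6% passed at 12 h, 7.34% as higher and 6.25% as lower, so 1 of 10 is near the background. The group means of the members were higher in Ra-treated cells for 6 genes and lower for 4, with a median of 0.15, against 0.01 over all genes. For an exact permutation test of a single gene, 3 against 3 arrays cannot give a two-sided p under 0.1.

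RICTOR encodes the subunit that defines mTORC2. Its values were 9.28, 9.11 and 9.21 in Ra-treated cells at 12 h, against 8.76, 8.67 and 8.72 in control cells. Each Ra array lay above each control array, and both groups were tight, at 9.20 ± 0.09 and 8.72 ± 0.04 (SD). Both other RICTOR probe sets with signal showed no overlap either. The middle one by signal read 8.74, 8.84 and 8.67 in Ra-treated cells, against 8.24, 8.31 and 8.30 in control cells, a difference of 0.47. The dimmest of the 3 read 7.94, 7.79 and 7.77 in Ra-treated cells, against 7.54, 6.84 and 7.37 in control cells, a difference of 0.58. The call depended on single arrays and on the spread used: limma's adjusted p was 0.0649 without Ra 12 h replicate 1 (difference 0.44), 0.0501 without control 12 h replicate 2 (difference 0.46) and 0.719 in a fit of all 12 arrays, where the wider spread of 48 h is shared and 0.0299% of all genes passed. Without those single arrays 3.3% and 5.24% of all genes passed.

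**Figure D2:**
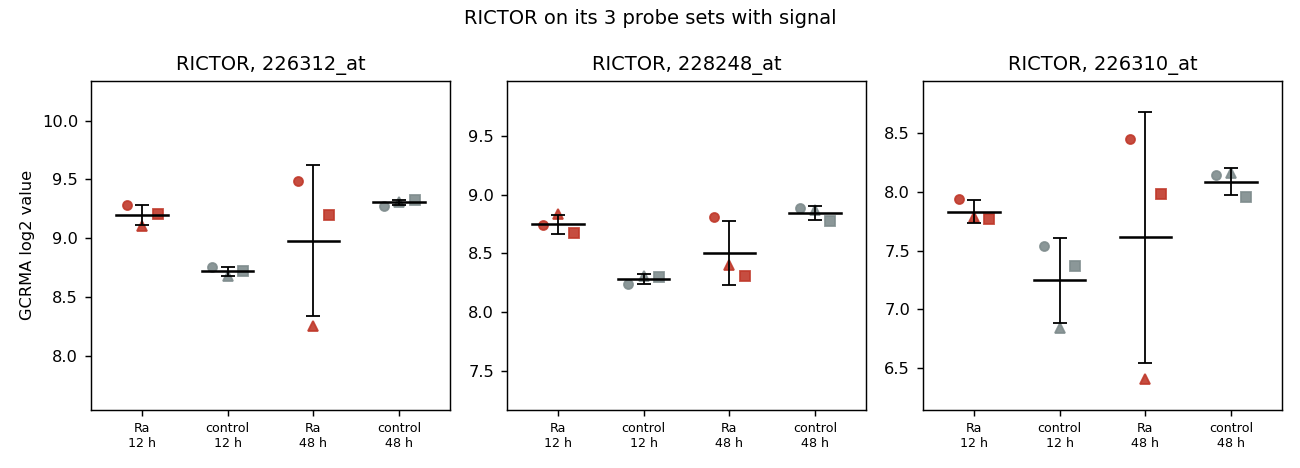
RICTOR on its 3 probe sets with signal (GCRMA log2 value by group; points are arrays, long bars means, whiskers 1 SD, n = 3). At 12 h the Ra arrays lie above the control arrays on each probe set; at 48 h the Ra arrays spread more widely and the ranges of the groups overlap.

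The promoters of RICTOR and RPS6KB1 are printed because RICTOR carried the call at 12 h and RPS6KB1 had one of the largest differences at 48 h, and they differ in base composition. Sequences are the 250 bases before the annotated start in RefSeq's table for GRCh38.p14, 5′ to 3′ on the gene's strand, and 8 of the 10 members were matched there. DEPTOR and EIF4EBP1, the latter with the largest difference at 48 h, were not. That of RICTOR lies at chr5:39074400-39074649 on the minus strand and that of RPS6KB1 at chr17:59892871-59893120 on the plus strand. Capitals mark GGGCGG, the GC box bound by Sp-type factors, searched on both strands together with the E-box CACGTG, the FOXO site GTAAACA and the amino acid response letters TGATGNAA.
RICTOR: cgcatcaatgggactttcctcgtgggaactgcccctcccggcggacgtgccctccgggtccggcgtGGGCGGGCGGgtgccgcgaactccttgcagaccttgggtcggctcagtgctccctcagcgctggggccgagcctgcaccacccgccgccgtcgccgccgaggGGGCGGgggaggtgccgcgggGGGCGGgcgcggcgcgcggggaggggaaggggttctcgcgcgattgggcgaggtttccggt
RPS6KB1: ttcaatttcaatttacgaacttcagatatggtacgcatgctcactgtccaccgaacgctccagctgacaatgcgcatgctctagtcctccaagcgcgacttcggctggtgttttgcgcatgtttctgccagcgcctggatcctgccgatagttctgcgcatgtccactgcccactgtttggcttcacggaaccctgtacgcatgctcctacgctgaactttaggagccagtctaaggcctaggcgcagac
The RICTOR promoter had a GC content of 76.0% and 4 GC boxes, of which a pair overlap. The RPS6KB1 promoter had a GC content of 54.0% and none of the 4 sets of letters. A GC box stood in 6 of the 8 promoters and in 42.31% of 27305 promoters of the same length. The E-box stood in that of TSC2 among the 8 (6.49% of all promoters), as did TGATGNAA (3.19%), and the FOXO site in none of the 8 (2.98%). These matches describe the letters in this window only.

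MTOR, the kinase itself, had the smallest difference of the group at 12 h. It read 7.82, 7.83 and 7.84 in Ra-treated cells at 12 h, against 7.83, 7.89 and 7.90 in control cells. The difference was -0.04 ± 0.09 (95% interval -0.25 to 0.16, adjusted p = 0.776), an interval that runs from 0.84 to 1.12 as a fold. RPTOR, the mTORC1 scaffold that recruits substrates, read 5.24, 5.45 and 5.22 in Ra-treated cells, against 5.48, 5.38 and 5.43 in control cells. Its signal lay close to 5 log2 units, the level of the filter on low values, and its difference was -0.13 ± 0.12 (adjusted p = 0.515). DEPTOR, an inhibitor that binds mTOR in both complexes, read 8.17, 9.09 and 8.62 in Ra-treated cells, against 8.43, 8.90 and 8.36 in control cells. The groups overlapped fully and the interval was wide, at 0.06 with -0.49 to 0.62.

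The subunits of the tuberous sclerosis complex, which holds the mTORC1 activator Rheb in its inactive state, had group means on opposite sides of control at 12 h, and neither passed the test. TSC1, which stabilises the complex, read 8.28, 8.20 and 8.01 in Ra-treated cells, against 8.29, 8.33 and 8.44 in control cells. Each Ra value lay under each control value, but the highest Ra array and the lowest control array nearly met, and the difference was -0.19 ± 0.11 (adjusted p = 0.256). TSC2, the subunit that acts on Rheb, read 7.45, 7.63 and 6.89 in Ra-treated cells, against 6.71, 6.67 and 7.22 in control cells. Replicate 3 lay the other way round from replicates 1 and 2, and the difference was 0.45 ± 0.22 (interval -0.07 to 0.97, adjusted p = 0.215). Groups without overlap were found in 2 of the 10 members, RICTOR and TSC1, against 35.3% of all genes.

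Of the substrates, EIF4EBP1 encodes 4E-BP1, which represses cap-dependent translation until mTORC1 phosphorylates it. It read 9.77, 9.26 and 9.69 in Ra-treated cells at 12 h, against 9.17, 8.84 and 9.44 in control cells. The ranges overlapped, but each Ra array lay above the control array of its own number, and the difference was 0.42 ± 0.18 (adjusted p = 0.162). RPS6KB1, the S6 kinase that phosphorylates ribosomal protein S6, read 9.05, 9.12 and 9.20 in Ra-treated cells, against 9.39, 9.03 and 9.28 in control cells. The groups overlapped, with a difference of -0.11 ± 0.11 (adjusted p = 0.542), and its other probe sets with signal differed by -0.08 and -0.26.

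The insulin receptor substrates dock PI3K to the activated receptor. IRS1 read 8.19, 8.24 and 8.77 in Ra-treated cells at 12 h, against 8.18, 7.85 and 8.49 in control cells, a difference of 0.23 ± 0.20 (adjusted p = 0.490). IRS2 read 11.47, 11.41 and 11.63 in Ra-treated cells, against 11.23, 10.95 and 11.49 in control cells, a difference of 0.28 ± 0.13 (adjusted p = 0.198). In both genes the ranges overlapped. The other IRS2 probe set with signal differed by 0.04.

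The labels give replicate numbers but state no pairing of Ra with control samples. At 12 h the deviations of same-numbered Ra and control arrays from their group means correlated at 0.182, 0.421 and 0.344. All exceeded 0.1, the mark used here, and for all 3 Ra arrays the control array of the same number correlated best. Values this low from 3 arrays a group still do not establish a pairing. With the replicate number as a block, limma called 3 of the 10 members, against 23.4% of all genes. EIF4EBP1 (0.42 ± 0.09, adjusted p = 0.0176) and IRS2 (0.28 ± 0.07, adjusted p = 0.0333) joined RICTOR (adjusted p = 0.00875), all higher in Ra-treated cells. IRS1 had the same sign in each pair and an adjusted p of 0.175 in that fit.

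At 48 h none of the 10 members, and 0% of all genes, passed limma's test, whose lowest adjusted p over all genes was 0.168. An unadjusted p under 0.05 was reached by 2 members and by 1748 of the 10050 genes (17.4%). The members had means on both sides of control, 3 higher and 7 lower in Ra-treated cells, with a median of -0.14, against -0.20 over all genes. Without Ra 48 h replicate 2, 0% of all genes passed again, and the medians were 0.03 over the members and 0.01 over all genes. The groups did not overlap in 2 members, EIF4EBP1 and RPS6KB1, against 24.0% of all genes.

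The translation substrates had the largest differences of the group at 48 h. EIF4EBP1 read 9.46, 8.62 and 9.16 in Ra-treated cells at 48 h, against 10.57, 10.48 and 9.66 in control cells. All Ra arrays lay below all control arrays, and the difference was -1.15 ± 0.34 (95% interval -1.93 to -0.38, adjusted p = 0.213). Without Ra 48 h replicate 2 it was -0.92 ± 0.31 (adjusted p = 0.198). RPS6KB1 read 9.34, 8.49 and 9.30 in Ra-treated cells, against 10.10, 10.14 and 9.49 in control cells. The difference was -0.87 ± 0.33 (interval -1.62 to -0.12, adjusted p = 0.253), and -0.59 ± 0.24 without replicate 2 (adjusted p = 0.237).

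All 3 RPS6KB1 probe sets with signal had lower means in Ra-treated cells at 48 h. The middle one by signal read 8.19, 6.99 and 8.37 in Ra-treated cells, against 8.75, 8.88 and 8.32 in control cells, a difference of -0.80. The dimmest read 6.77, 4.75 and 6.73 in Ra-treated cells, against 7.37, 7.38 and 6.77 in control cells, a difference of -1.09. On both the ranges overlapped, through control 48 h replicate 3. Replicate 2 was the lowest Ra array on both, at 6.99 and 4.75, and the differences of -0.80 and -1.09 include it. In the fit of all 12 arrays, where 12.6% of all genes passed at 48 h, EIF4EBP1 (adjusted p = 0.0265) and RPS6KB1 (adjusted p = 0.0419) were called lower. That fit lends the smaller spread of 12 h to the more variable arrays of 48 h.

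The mTORC2 subunit no longer separated the groups at 48 h. RICTOR read 9.48, 8.26 and 9.20 in Ra-treated cells, against 9.28, 9.31 and 9.32 in control cells. The lowest array was replicate 2, and the difference of -0.33 ± 0.34 became 0.04 ± 0.16 without it. The middle RICTOR probe set by signal read 8.81, 8.40 and 8.30 in Ra-treated cells, against 8.89, 8.87 and 8.77 in control cells. Its difference was -0.34, and its lowest Ra array was replicate 3. The dimmest of the RICTOR probe sets with signal differed by -0.47, with replicate 2 lowest. MTOR read 8.03, 7.55 and 8.14 in Ra-treated cells, against 8.09, 7.82 and 7.83 in control cells, with a difference of -0.01 ± 0.28, or 0.17 without replicate 2. RPTOR read 5.40, 5.15 and 5.45 in Ra-treated cells, against 5.28, 5.29 and 5.62 in control cells. Its difference was -0.07 ± 0.26, or 0.03 without replicate 2, and both signs are therefore unsettled.

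DEPTOR had the widest spread among Ra-treated cells at 48 h, at 11.01, 9.55 and 9.12, against 9.81, 9.97 and 10.56 in control cells. Its Ra values lay on both sides of the control range (difference -0.22 ± 0.47, or -0.05 ± 0.57 without replicate 2). TSC1 read 8.59, 7.03 and 8.27 in Ra-treated cells, against 8.42, 8.63 and 8.19 in control cells, and its difference of -0.45 ± 0.42 became 0.02 without replicate 2. TSC2 read 8.11, 7.01 and 7.68 in Ra-treated cells, against 7.45, 7.30 and 7.01 in control cells. On replicates 1 and 3 it was above the control range, with a difference of 0.64 ± 0.22 without replicate 2 (adjusted p = 0.199) and 0.35 ± 0.34 with it.

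IRS1 read 8.43, 7.29 and 8.95 in Ra-treated cells at 48 h, against 7.82, 8.05 and 8.003 in control cells. Replicates 1 and 3 lay above each control array and replicate 2 below them, so that the difference was 0.27 ± 0.42 with replicate 2 and 0.74 ± 0.21 without it (adjusted p = 0.178). IRS2 read 12.24, 11.41 and 11.55 in Ra-treated cells, against 11.23, 11.46 and 11.96 in control cells. These ranges overlapped, and the difference was 0.18 ± 0.29, or 0.35 ± 0.29 without replicate 2. IRS1, IRS2 and TSC2 had positive differences at both times and passed at neither, and that of IRS1 at 48 h was -0.10 without Ra 48 h replicate 3.

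**Figure D3:**
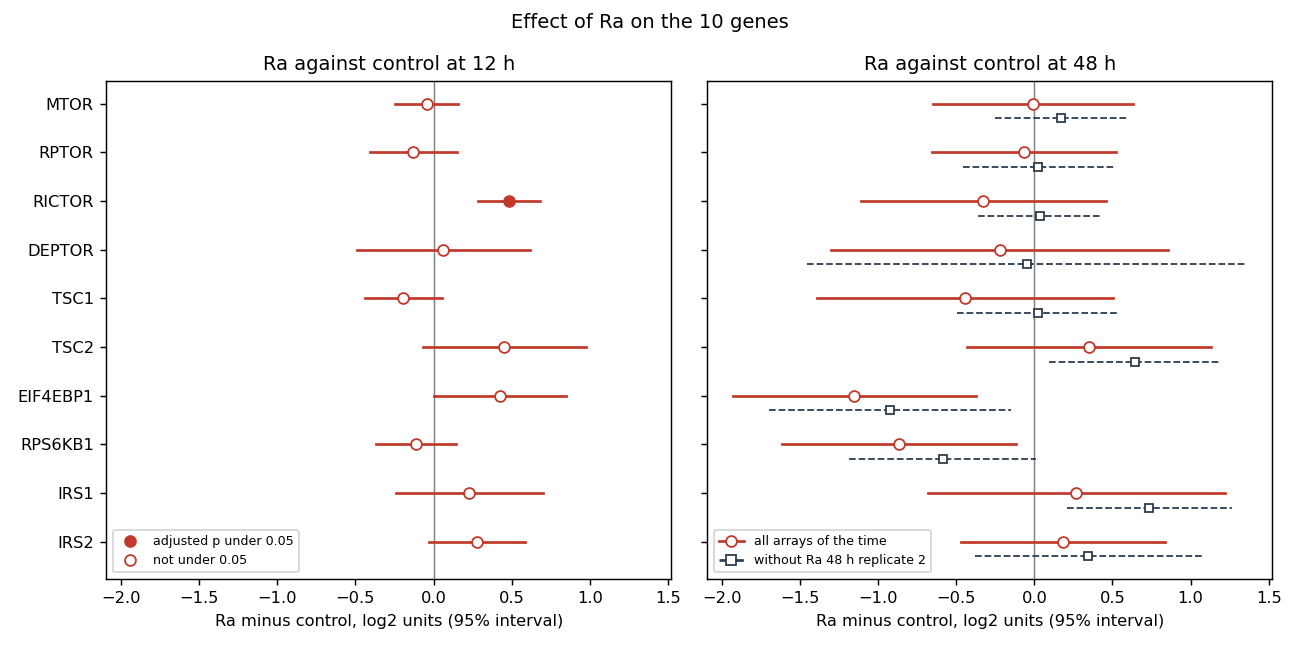
Ra minus control in log2 units with 95% intervals from limma for the 10 genes at 12 h (left) and 48 h (right); the dashed bars at 48 h leave out Ra 48 h replicate 2, and filled points have an adjusted p under 0.05. RICTOR at 12 h (0.48) is the single filled point, and EIF4EBP1 (-1.15) and RPS6KB1 (-0.87) lie farthest from 0 at 48 h.

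Whether the response to Ra differed between the times was tested as an interaction over all 12 arrays, which 0.0199% of all genes passed and none of the 10 members did. The largest difference among members was that of EIF4EBP1, at -1.58 ± 0.40 (95% interval -2.45 to -0.70, adjusted p = 0.105), from a negative difference at 48 h and a positive one at 12 h. Without Ra 48 h replicate 2 it was -1.35 ± 0.37 (adjusted p = 0.0677). The call was reached without Ra 48 h replicate 1 (-1.76, adjusted p = 0.0241) and without control 48 h replicate 3 (-1.86, adjusted p = 0.0223). Without these arrays 10.4% and 5.69% of all genes passed. RICTOR had a difference of -0.81 ± 0.36 (adjusted p = 0.245) and RPS6KB1 one of -0.75 ± 0.35 (adjusted p = 0.264). Without Ra 48 h replicate 2 these were -0.44 ± 0.16 (adjusted p = 0.109) and -0.48 ± 0.26 (adjusted p = 0.253). The other 7 lay between -0.28 and 0.06, and among them IRS1 was 0.04, or 0.51 ± 0.32 without that array.

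Time in culture was compared in control cells, 48 h against 12 h. Here 4 of the 10 members passed, against 33.2% of all genes. All 4 were higher at 48 h, as were 1665 of the 3334 genes that passed (16.6% of all genes). The mean was higher at 48 h in 8 of the 10 members and in 50.6% of all genes. DEPTOR was 2.92-fold higher, with 9.81, 9.97 and 10.56 at 48 h against 8.43, 8.90 and 8.36 at 12 h (1.55 ± 0.24, adjusted p = 0.00561). EIF4EBP1 was 2.12-fold higher (1.08 ± 0.27, adjusted p = 0.024), RPS6KB1 1.596-fold (0.67 ± 0.20, adjusted p = 0.0417) and RICTOR 1.501-fold (0.59 ± 0.10, adjusted p = 0.00806). The groups did not overlap in these 4 members, against 50.8% of all genes. The other RPS6KB1 probe sets with signal differed by only 0.08 and 0.24, and with a gene's probe sets averaged RPS6KB1 differed by 0.33 and did not pass (adjusted p = 0.203). Those of RICTOR differed by 0.56 and 0.84. MTOR (0.04 ± 0.13), RPTOR (-0.04 ± 0.15) and TSC1 (0.06 ± 0.15) had the smallest differences.

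DEPTOR and RICTOR passed whichever single array was left out. EIF4EBP1 and RPS6KB1 still passed when control 48 h replicate 3 was left out, and without any other single array their adjusted p lay between 0.0525 and 0.0873 for EIF4EBP1 and between 0.0843 and 0.136 for RPS6KB1. Of all genes 45.6% passed without control 48 h replicate 3, and 14.2% to 26.4% without another single array. In the fit of all 12 arrays, where 19.5% of all genes passed, DEPTOR (adjusted p = 0.0225) and EIF4EBP1 (0.0206) passed, and RICTOR (0.125) and RPS6KB1 (0.0759) did not. The labels give no batch for the arrays, and a batch that went with time cannot be told apart from time.

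In Ra-treated cells, 48 h against 12 h, none of the members and 0% of all genes passed, with 843 genes at an unadjusted p under 0.05 (8.39%). DEPTOR read 11.01, 9.55 and 9.12 at 48 h, against 8.17, 9.09 and 8.62 at 12 h, without overlap, as in 19.5% of all genes. Its difference was 1.26 ± 0.48 (adjusted p = 0.587). It was 1.44 ± 0.57 without Ra 48 h replicate 2 (adjusted p = 0.296). EIF4EBP1 differed by -0.49 ± 0.28 (adjusted p = 0.606), or -0.26 ± 0.19 without that array. RPS6KB1 differed by -0.08 ± 0.28 and RICTOR by -0.22 ± 0.33, and without that array both signs turned, to 0.20 ± 0.11 and 0.14 ± 0.13. The other RPS6KB1 probe sets with signal differed by -0.64 and -0.59 over all arrays. These comparisons share arrays with those of Ra against control, so for EIF4EBP1 the values 1.08 in control cells over time and -1.15 for Ra at 48 h both rest on the same control 48 h arrays.

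The rest of the pathway was followed in 5 lists of 102 other genes, of which 84 passed the filter, 10 were below it and 8 had no probe set with a single symbol. At 12 h limma called 12 of the 84 (14.3%, near the 13.6% of all genes), 4 higher and 8 lower. The median difference over the 84 was -0.02.

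Among subunits and assembly factors of the complexes, 2 of 8 were lower in Ra-treated cells at 12 h and none was higher, with a list median of -0.25. They were TTI2 (-0.39 ± 0.11, adjusted p = 0.0496) and TELO2 (-0.39 ± 0.10, adjusted p = 0.0386), partners in the chaperone module that folds mTOR and related kinases. Among the amino acid and Rheb inputs, 2 of 26 were higher and 3 lower, with a median of -0.06. RHEBL1, a Rheb-like GTPase, read 7.84, 7.55 and 7.60 in Ra-treated cells, against 6.56, 6.57 and 5.68 in control cells (1.39 ± 0.24, adjusted p = 0.0145). RRAGD, a Rag GTPase that brings mTORC1 to the lysosome, was 1.27 ± 0.33 higher (adjusted p = 0.0449). The falls were in SESN2 (-0.51 ± 0.11), a leucine sensor induced by stress, in KPTN (-0.40 ± 0.11), part of the KICSTOR scaffold, and in SEH1L (-0.35 ± 0.08), a GATOR2 subunit named after its value was seen.

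DDIT4, known as REDD1 and an inhibitor of mTORC1 through the TSC complex, was the call among 11 energy and stress inputs. It read 11.72, 11.98 and 12.14 in Ra-treated cells at 12 h, against 12.52, 12.69 and 12.60 in control cells, a fall of 0.66 ± 0.11 on the log2 scale, or to 0.63 of control (adjusted p = 0.0126). Among 16 substrates and effectors, ULK1, the kinase that starts autophagy, was higher (0.97 ± 0.20), with a control mean of 4.51, under 5 units, so that its size depends on the background model. POLDIP3, a partner of S6 kinase also called SKAR, fell (-0.42 ± 0.09), and so did SGK1, a kinase activated by mTORC2 (-0.48 ± 0.13).

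In the insulin receptor and PI3K-AKT list, 1 of 23 genes passed at 12 h. IGF1R, the receptor for insulin-like growth factor 1, read 8.19, 8.28 and 8.14 in Ra-treated cells, against 7.26, 7.32 and 7.34 in control cells (1.87-fold, 0.90 ± 0.09, adjusted p = 0.00556). Its other probe sets differed by 1.11 and 0.75. The count over the lists ran from 2 to 11 when single arrays were left out, where 2.92% to 13.8% of all genes passed. DDIT4 and IGF1R were called in each of the 6 cases. In the fit of all 12 arrays the count was 0, where 0.0299% of all genes passed. With the replicate block it was 19, where 23.4% of all genes passed. In the block fit TTI2 was no longer called (limma adjusted p = 0.0616) and the other 11 of the 12 were.

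**Figure D4:**
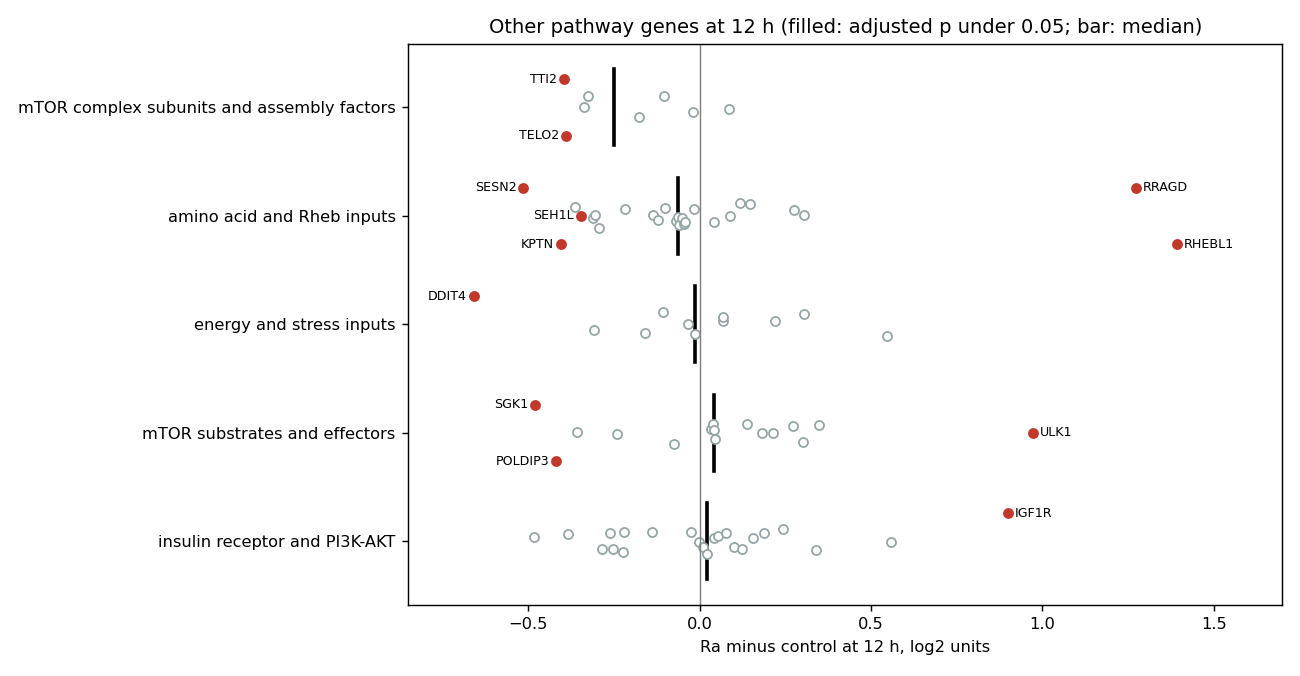
Ra minus control at 12 h (log2 units) for the 84 other pathway genes in 5 lists; each point is a gene, filled points have a limma adjusted p under 0.05 and black bars are list medians. The 12 called genes are named, with RHEBL1 (1.39) the highest and DDIT4 (-0.66) the lowest of all points.

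At 48 h none of the 84 genes passed the test on the 6 arrays of that time. SESN2 read 9.41, 6.18 and 7.41 in Ra-treated cells, against 10.36, 10.13 and 10.51 in control cells, a difference of -2.67 ± 0.69 (adjusted p = 0.193), or -1.92 ± 0.57 without Ra 48 h replicate 2 (adjusted p = 0.18). TRIB3, a pseudokinase that binds AKT, read 12.11, 10.73 and 10.93 in Ra-treated cells, against 12.998, 13.32 and 12.997 in control cells, a difference of -1.85 ± 0.34 (adjusted p = 0.191), or -1.59 ± 0.35 without that array. SGK1 read 12.57, 12.50 and 13.16 in Ra-treated cells, against 10.45, 11.43 and 11.27 in control cells, a difference of 1.69 ± 0.30 (adjusted p = 0.191), or 1.81 ± 0.34 without it. In none of these 3 genes did the groups overlap.

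Others of the lists that had low p-values at 48 h included DDIT4 (-1.68 ± 0.48, or -1.29 ± 0.53 without Ra 48 h replicate 2) and GRB10 (-1.42 ± 0.41, or -1.09 ± 0.37), an adaptor that restrains the insulin receptor. AKT1 read 9.005, 8.46 and 9.30 in Ra-treated cells, against 8.11, 8.05 and 8.52 in control cells. Without Ra 48 h replicate 2 AKT1 differed by 0.92 ± 0.21 (limma adjusted p = 0.162), INPP4B by -0.90 ± 0.22 and PRKAB2 by -0.79 ± 0.24. EIF4EBP2, the paralogue of EIF4EBP1, differed by 0.71 ± 0.28, or 0.87 ± 0.19 without that array, and EIF4EBP1 itself by -1.15. The amino acid and Rheb inputs had means lower in Ra-treated cells in 23 of 26 genes (88.5%), with a median of -0.50, against 67.1% and -0.20 over all genes. Without Ra 48 h replicate 2 these were 16 of 26 (61.5%) and -0.19, against 49% and 0.01 over all genes. The share of lower means was 81.8% in the energy and stress inputs and 68.8% in the substrates and effectors. It was 62.5% in the complex subunits and assembly factors and 56.5% in the insulin receptor and PI3K-AKT list. Without that array these shares were, in the same order, 63.6%, 31.2%, 62.5% and 43.5%. In the fit of all 12 arrays 12 of the 84 were called at 48 h (14.3%, against 12.6% of all genes), EIF4EBP2 and SGK1 as higher and 10 as lower, among them SESN2, DDIT4, TRIB3, GRB10, RRAGC and FLCN. In control cells, 48 h against 12 h, 31 of the 84 passed (36.9%, near the 33.2% of all genes), 16 higher and 15 lower. The same control 48 h arrays enter both comparisons, and there SESN2 was 2.17 ± 0.14 higher, TRIB3 1.89 ± 0.15 higher and SGK1 lower, at -2.07 ± 0.26.

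The genes whose values over the 12 arrays were most like those of RICTOR were FAM219B (Pearson r = 0.97, or 0.95 without Ra 48 h replicate 2), PIKFYVE (0.95, or 0.93) and YPEL2 (0.95, or 0.91). The arrays share time and treatment groups, so these correlations are a description. At 12 h YPEL2 was higher in Ra-treated cells (0.88, adjusted p = 0.0109), FAM219B differed by 0.39 (adjusted p = 0.0566), and PIKFYVE, the lipid kinase that makes phosphatidylinositol 3,5-bisphosphate, differed by 0.35 (adjusted p = 0.0691).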

How the data were processed

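Total RNA from 12 HK-2 samples was hybridised to Affymetrix 3′ expression arrays. The deposited values come from GCRMA, per the submitters' processing notes, and the range of the authors' values on each array is that of log2 units. The GCRMA version and which arrays were normalized together were not stated there. GCRMA compresses low signals. Of 54675 probe sets, 41097 had 1 symbol in the platform annotation, 1801 several and 11777 none. RefSeq matched 41043 by Entrez number and changed no symbol. No 2 arrays held identical values (0 pairs).

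Probe sets at 5 log2 units or more on at least 3 arrays were kept, and the one with the highest mean stood for its gene (10050 genes). limma 3.58.1 in R 4.3.3 was fitted to the 6 arrays of each comparison (4 residual degrees of freedom) and, for the interaction, to all 12 (8), with variances moderated along intensity, and p-values were adjusted over all genes (Benjamini-Hochberg, threshold 0.05). Ra against control had its own fit at each time because the spread differed between the times. The comparisons over time and the interaction pool arrays of 12 h and 48 h, so their SEs mix the unlike spreads of both times. P-values measure the spread between samples that the labels call biological replicates.

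The members and lists were chosen with earlier results of these data known. Genes named are the members, in each list up to 4 called at 12 h with the largest change and up to 4 with the lowest p at 48 h, the 3 most like RICTOR, which had the largest change of the members at 12 h, and GAPDH and ACTB. Pairing by replicate number was checked by correlating deviations: all 3 values exceeded 0.1 at 12 h, and at 48 h they were 0.301, -0.219 and 0.097. The code was tested on simulated data. The alternatives were other filters, probe set rules, normalizations, moderation, array weights, the block, a fit of all 12 arrays and leaving out each array.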

Additional observations from a re-analysis of the deposited data

Results flagged for a closer look

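EIF4EBP1 is listed because its Ra arrays lay on opposite sides of the control mean at the 2 times: each Ra 12 h array lay above the control mean of 12 h and each Ra 48 h array below that of 48 h. The Ra minus control difference was -1.15 at 48 h (adjusted p = 0.213) and 0.42 at 12 h (adjusted p = 0.162), so that neither passed, and the difference between them was -1.58 ± 0.40 log2 units (SE). That difference was tested as an interaction over all 12 arrays and did not pass (limma adjusted p = 0.105). It passed with quantile normalization (-1.34, adjusted p = 0.0314), with arrays centred on their median (-1.31, adjusted p = 0.0305) and with array weights (-1.69, adjusted p = 0.000386). In these settings 9.4%, 8.52% and 44.4% of all genes passed the interaction, against 0.0199% in the reported fit. Over all 22 alternatives EIF4EBP1 passed in 5, with values between -1.86 and -1.31 and adjusted p-values between 0.000386 and 0.276.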

How the results depend on the processing

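Of the Ra differences of the 10 genes at each time, 299 values under the alternatives kept the direction and the side of the threshold, 9 passed where the reported value had not, 3 no longer passed and 23 changed sign; all sign changes were in differences that had not passed. DEPTOR at 12 h was -0.0102 with array weights. At 48 h MTOR was 0.0008 with probe sets averaged, 0.26 with quantile normalization, 0.24 with arrays centred on their median and 0.26 with array weights; RPTOR was 0.16, 0.19 and 0.12 with these last 3; DEPTOR was 0.0018 with quantile normalization and 0.0295 with centring. When single arrays were left out, DEPTOR ran from -0.17 to 0.29 at 12 h, and at 48 h DEPTOR ran from -0.78 to 0.17, IRS1 from -0.10 to 0.74, IRS2 from -0.0705 to 0.39, MTOR from -0.13 to 0.17, RPTOR from -0.12 to 0.0474, RICTOR from -0.58 to 0.0362 and TSC1 from -0.76 to 0.0211. The count of genes called at 12 h was 1366, against 506 with no filter, 904 without probe sets that can cross-hybridise, 2351 with the replicate block, 3 in the fit of all 12 arrays and 293 to 1388 without single arrays. At 48 h it was 0, against 307 with a filter at 7 log2 units, 639 with quantile normalization, 714 with centring, 4790 with array weights, 131 with the replicate block, 1262 in the fit of all 12 arrays and 0 to 71 without single arrays. For the interaction it was 2, against 5 with no filter, 43 with the filter at 7, 1 with the mean of probe sets, 12 without cross-hybridising probe sets, 945 with quantile normalization, 856 with centring, 17 with robust moderation, 4464 with array weights, 60 with the replicate block and 1 to 1041 without single arrays (1041 without Ra 48 h replicate 1). For control cells over time it was 3334, against 2091 with no filter, 5788 with array weights, 1955 in the fit of all 12 arrays and 1429 to 4583 without single arrays, and for Ra-treated cells over time 0, against 2 with no filter, 41 with centring, 521 with array weights, 235 with the replicate block and 0 to 4 without single arrays. Of the calls at 48 h, 23.9% were higher in the fit of all 12 arrays, 49.6% with quantile normalization and 54.3% with centring, and the median over all genes was -0.20 as deposited, 0.01 with quantile normalization and 0.05 with centring. With centring EIF4EBP1 passed at 48 h (-0.90, adjusted p = 0.0491), and with array weights so did EIF4EBP1 (-1.23), RPS6KB1 (-0.79), IRS1 (0.84) and TSC2 (0.43). Of all genes 7.1% passed at 48 h with centring and 47.7% with array weights. With array weights the interaction also passed for RICTOR (-0.58, adjusted p = 0.00512), RPS6KB1 (-0.64, adjusted p = 0.00998) and IRS1 (0.70, adjusted p = 0.0457), as it did for 44.4% of all genes. At 48 h and over time in both groups the correlations of same-numbered arrays did not all exceed 0.1. For Ra-treated cells over time they were 0.117, 0.0082 and 0.175. With the block DEPTOR in Ra-treated cells over time passed (1.26, limma adjusted p = 0.0152), and RPS6KB1 in control cells over time did not (limma adjusted p = 0.0594). Of all genes 2.34% and 26.9% passed in these fits. The block changed no other member's call beyond those at 12 h. TSC2 and IRS2 have no value without cross-hybridising probe sets, and RPTOR none with the filter at 7. With 3 arrays a group and the spread of 48 h, changes of modest size could not be resolved. The cause of these shifts was not tested.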
